A study of Mus musculus with 4 samples.

Results

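Germ cells make many messenger RNAs well before the proteins are needed, and a set of RNA-binding proteins stores, protects and later activates them. The 9 genes described here, Ybx2, Papolb, Pabpc1, Dazl, Boll, Cpeb1, Cpeb2, Eif4g3 and Paip2, encode such translational control proteins. They were chosen by name from the 26068 entries of the expression table that carry a gene name, each symbol matched a single entry, and all 9 were expressed above the level needed for testing. The material was total RNA of whole testes, taken at 24 days of age from male mice of the hybrid strain B6D2F1. There were 2 libraries from homozygous Adad2-knockout testes and 2 from wild type testes. ADAD2, the product of the disrupted gene, is made in germ cells and resembles RNA-editing deaminases. By its title, the study asks about piRNAs and spermiogenesis, the shaping of spermatids into sperm.

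In spermatids transcription stops as the nucleus condenses, so late sperm proteins are made from messages that were transcribed earlier and held in ribonucleoprotein particles. The length of the poly(A) tail at the end of a message and the proteins bound to it and to the 3′ untranslated region (UTR) help to decide when the message is translated. At 24 days the first wave of germ cells has passed meiosis and spermatids are forming, so spermatocytes and early spermatids, the cells in which these proteins act, are both present.

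The values were log2 RPKM, which corrects read numbers for the length of the gene and the depth of the library, so that a difference of 1 is a doubling. Depth, estimated from the step that 1 read makes in low genes, was near 32900000 and 29500000 reads in the knockout libraries and near 30200000 and 36900000 reads in the wild type libraries. Each of the 9 genes held an estimated 552 to 38115 reads in every library. By this estimate counting error was about 4.26% or less for a gene in a library, counting error only. The estimate rests on Gencode M21 exon lengths, and the lengths that the authors used are not known, so true read numbers may differ. The labels do not say whether libraries came from separate animals, so p-values measure the spread between these libraries, which may be technical. Adad2 itself was at 13.2 and 9.86 RPKM in the knockout libraries, against 25.2 and 22.2 RPKM in the wild type libraries (limma adjusted p = 0.00604). It missed the threshold without wild type replicate 1, where every gene did, and without wild type replicate 2. Its log2 change was -0.96 in the first of these fits and -1.14 in the other. Its transcript was lower and still measured in the knockout, and the labels do not say which part of the gene was altered, so reads may come from outside it.

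None of the 9 genes passed the threshold in either direction (limma, Benjamini-Hochberg adjusted p under 0.05 over 13414 genes tested). Over all genes tested, 7.15% were called lower and 1.22% higher in the knockout, 8.36% in all. At an unadjusted limma p under 0.05 there was 1 of the 9 genes, Cpeb2, a smaller share than the 27.0% of all genes tested. Limma without an intensity trend or robust estimation called 0 of the 9. Cpeb2 was called lower with a stricter filter, after quantile normalization and with library medians set equal. The 9 differences ran from -0.38 for Cpeb2 to 0.25 for Dazl with a median of 0.02. The median of all genes tested was 0.14. All 9 of the 95% confidence intervals lay within 1 of 0 on the log2 scale, so a doubling or halving of any of these transcripts lay outside its interval. In whole-testis RNA, fewer cells of a type and less RNA per cell cannot be told apart.

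**Figure D1:**
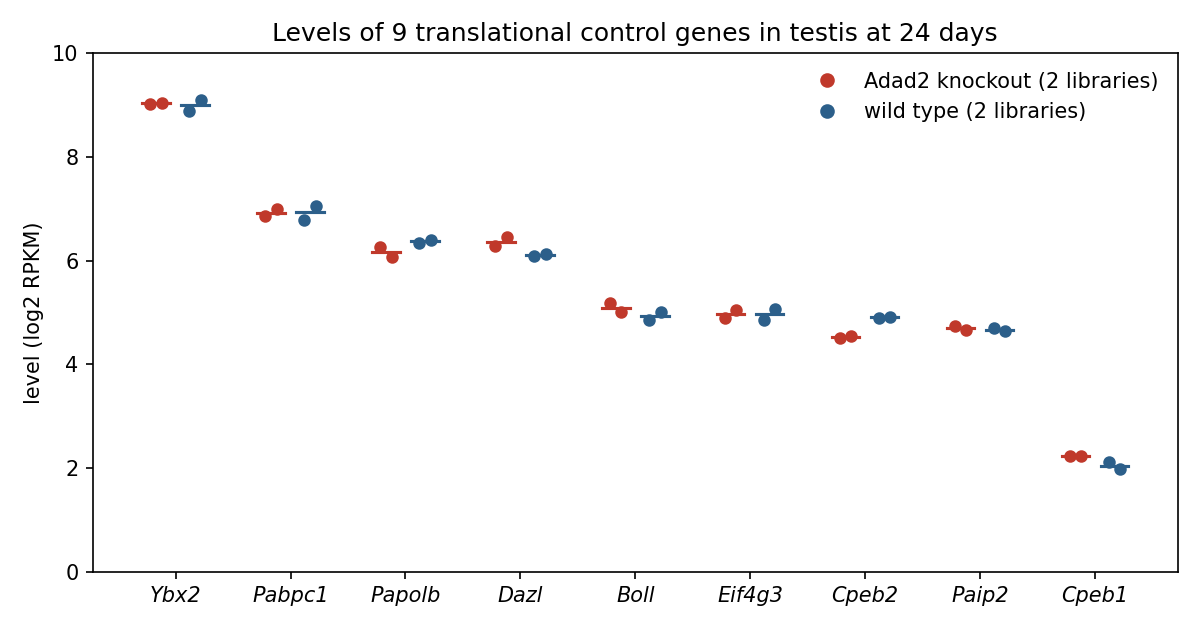
Level of each of the 9 genes in log2 RPKM (y axis) in the 2 Adad2 knockout libraries (red) and the 2 wild type libraries (blue); points are libraries and bars are group means. Ybx2 stands highest, near 9, and Cpeb1 lowest, near 2, and the groups of Cpeb2, Papolb, Dazl and Cpeb1 do not overlap.

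Ybx2 encodes the germ cell Y-box protein (MSY2), which coats and stabilises stored messages in spermatocytes and spermatids. It was the highest of the 9 and the 8th highest of all genes tested by mean level. Its level was 520 and 527 RPKM in the knockout libraries, against 470 and 547 RPKM in the wild type libraries. Both knockout values lay between the wild type values. On the log2 scale this was 9.03 ± 0.01 in knockout and 8.99 ± 0.16 in wild type (SD, n = 2 each), a difference of 0.05 (95% confidence interval -0.25 to 0.34, limma adjusted p = 0.816). In mm9, Ybx2 (ENSMUSG00000018554) spans chromosome 11 from 69749298 to 69755107, plus strand.

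The 2 other Y-box genes were not called either. Ybx3, listed under its older symbol Csda, was at 411 and 414 RPKM in the knockout and 365 and 464 RPKM in wild type (limma adjusted p = 0.991). Ybx1, the widely expressed member, was at 128 and 134 RPKM in the knockout and 120 and 145 RPKM in wild type (limma adjusted p = 0.953). Within a library the level of Ybx2 was 1.27 and 1.27 times that of Ybx3 in the knockout and 1.29 and 1.18 times in wild type, and 4.05 and 3.93 times that of Ybx1 in the knockout and 3.91 and 3.77 times in wild type. The balance between the 3 paralogs, compared per length as RPKM, differed little between the libraries. Reads of closely related genes may have been shared between them by the authors' counting.

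A Y-box recognition sequence, TCCATCA in DNA letters, is known from the 3′ UTR of Prm1, where Ybx2 and Ybx3 proteins bind. A cytoplasmic polyadenylation element, TTTTAT or TTTTAAT, is the site that the founding CPEB protein, CPEB1, binds. Both were searched on the sense strand in the last 150 bases of 3′ UTRs in Gencode M21 transcripts, and the matches are shown as the letters that these proteins are known to bind. Capitals mark the element.
Prm1: aatagcaagTCCATCAaaactcctgc
Acr: caaatcttccTCCATCAaatttacatc
Ace: tgaagtaactTTTTATctacatattt
Ybx2: tctgaagccaTTTTATgaactgtcat
The element in Prm1 (chromosome 16) starts 141 bases before the transcript's end. That in Acr (chromosome 15), which encodes acrosin, starts 55 bases before the end, and that in Ace (chromosome 11), which has a germ cell form of angiotensin-converting enzyme, 91 bases before it. The element in Ybx2 is in its own message, 62 bases before the end. The polyadenylation signal AATAAA was found in the windows of Prm1, Acr and Ace but not in that of Ybx2. TCCATCA was found in 2 of the 12 stored messages with a UTR long enough and in 0 of the 9 genes, against 0.833% of 18736 protein-coding genes with such a window. The match in Prm1 was known beforehand, and the window was chosen after sequences were seen, so this count does not measure enrichment. Either polyadenylation element was found in 1 of the 12 messages and in 1 of the 9 genes, against 23.3% of all such genes. These matches are letters in a window and do not show binding.

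Papolb encodes the testis form of poly(A) polymerase, a cytoplasmic enzyme that lengthens poly(A) tails in spermatogenic cells. Its level was 76.7 and 66.7 RPKM in the knockout libraries, against 80.7 and 84.6 RPKM in the wild type libraries. Both knockout libraries were below both wild type libraries. The log2 difference was -0.21 (95% confidence interval -0.47 to 0.06, limma adjusted p = 0.264), a level 86.6% of wild type. Papolb lies on the minus strand of chromosome 5 from 143001792 to 143006030 (mm9, ENSMUSG00000074817), and overlaps the span of Radil on the same strand, with which it shares 0 exon bases in Gencode M21. Papola, the general nuclear enzyme, was at 14.7 and 14.1 RPKM in the knockout and 12.4 and 12.8 RPKM in wild type (limma adjusted p = 0.243). The level of Papolb was therefore 5.22 and 4.72 times that of Papola in the knockout libraries and 6.48 and 6.60 times in the wild type libraries. That the groups of this ratio did not overlap follows from Papolb lying lower and Papola higher in both knockout libraries. Neither gene was called, and 63.2% of all genes tested, taken singly, had groups that did not overlap. The ratio pairs genes picked by role after their values were known and was not tested. Tent2, a cytoplasmic poly(A) polymerase that works with CPEB in frog oocytes and is listed as Papd4, was at 2.01 and 2.01 RPKM in the knockout and 1.68 and 1.13 RPKM in wild type (limma adjusted p = 0.163). Papolg, another nuclear poly(A) polymerase, had a log2 difference of 0.29 (limma adjusted p = 0.17), and Cstf2t, a testis form of a cleavage stimulation factor subunit, one of 0.33 (limma adjusted p = 0.142).

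Pabpc1 encodes the main cytoplasmic poly(A)-binding protein, which joins the tail to the initiation complex. It was at 115 and 128 RPKM in the knockout libraries and 111 and 133 RPKM in the wild type libraries. The knockout values again lay between the wild type values. The log2 difference was 0.00 when rounded, with a 95% confidence interval of -0.30 to 0.30 (limma adjusted p = 0.984). The gene is on the minus strand of chromosome 15 from 36525416 to 36538728 (mm9, ENSMUSG00000022283).

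Paip2 encodes an inhibitor that pulls poly(A)-binding protein off the tail, and mice without Paip2 proteins have defects in late spermatids. Its level was 4.73 and 4.66 log2 RPKM in the knockout libraries and 4.70 and 4.65 log2 RPKM in the wild type libraries. The groups overlapped, with a log2 difference of 0.02 (95% confidence interval -0.21 to 0.26, limma adjusted p = 0.873). Pabpc1 stood 4.33 and 5.04 times above Paip2 in the knockout libraries and 4.27 and 5.33 times in the wild type libraries, and these groups overlapped. Some paralogs of Pabpc1 were of similar abundance, per length. Pabpc2 was at 179 and 161 RPKM in the knockout and 186 and 203 RPKM in wild type (limma adjusted p = 0.304), and Pabpc6 at 101 and 97.5 RPKM in the knockout and 75.7 and 100 RPKM in wild type (limma adjusted p = 0.394). Both resemble Pabpc1, so reads may be split between them. Pabpc4, an inducible form, was low, at 1.39 and 1.27 RPKM in the knockout and 1.15 and 1.13 RPKM in wild type (limma adjusted p = 0.447). Paip1, a partner that promotes translation (limma adjusted p = 0.305), and Paip2b, the other inhibitor (limma adjusted p = 0.873), were not called. In mm9, Paip2 (ENSMUSG00000037058) spans chromosome 18 from 35758271 to 35776840, plus strand, and overlaps Slc23a1 on the other strand, with which it shares 0 exon bases in Gencode M21.

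Cpeb2 encodes a cytoplasmic polyadenylation element-binding protein first found in mouse haploid germ cells, and it showed the largest difference of the 9 genes. Its level was 22.6 and 23.4 RPKM in the knockout libraries, against 29.9 and 30.1 RPKM in the wild type libraries. The replicates lay close together and the groups were well apart. The log2 levels were 4.52 ± 0.04 in knockout and 4.91 ± 0.01 in wild type (SD, n = 2 each), a difference of -0.38 (SE 0.10, 95% confidence interval -0.61 to -0.16), and the knockout level was 76.6% of wild type. The limma adjusted p was 0.0543, just outside the threshold. It was under 0.05 with a stricter filter (0.0429), with library medians set equal (0.0464) and after quantile normalization (0.0335). It was 0.106 with no filter, 0.109 without trend and robust estimation, and 0.116 to 0.189 with any library left out. In mm9, Cpeb2 (ENSMUSG00000039782) spans chromosome 5 from 43624702 to 43680963, plus strand. The predicted gene Gm7854 on the opposite strand overlaps it, was lower in the knockout too (log2 difference -0.72, limma adjusted p = 0.01), and shares 137 of 7816 exon bases with it in Gencode M21. Whether the counting used strand is not given in the sources used here, so reads of the shared bases may not have been told apart.

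Cpeb1 encodes the founding CPEB, needed in mouse germ cells for passage through meiotic prophase. It was the lowest of the 9, at 4.68 and 4.73 RPKM in the knockout libraries and 4.36 and 3.94 RPKM in the wild type libraries. Both knockout libraries were above both wild type libraries, yet the log2 difference of 0.18 had an interval spanning 0 (-0.10 to 0.47, limma adjusted p = 0.335). Cpeb1 lies on the minus strand of chromosome 7 from 88491912 to 88600351 (mm9, ENSMUSG00000025586).

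Of the other CPEB genes, Cpeb3 was called and Cpeb4 was not. Cpeb3 fell in the knockout, to 0.696 and 0.769 RPKM in the knockout libraries against 1.36 and 1.61 RPKM in the wild type libraries, a log2 change of -1.02 (SE 0.21, limma adjusted p = 0.0224). It was the lowest of the family in level and reached the filter through its wild type level (mean log2 RPKM -0.45 in the knockout and 0.57 in wild type), so its call is a description only. It missed the threshold without a filter (limma adjusted p = 0.0674), without wild type replicate 1, where every gene did, and without wild type replicate 2. Its log2 change was -1.14 without wild type replicate 1 and -0.89 without wild type replicate 2. Cpeb4 was at 8.45 and 7.98 RPKM in the knockout and 8.65 and 8.37 RPKM in wild type (limma adjusted p = 0.748). The level of Cpeb2 was 4.82 and 4.95 times that of Cpeb1 in the knockout, against 6.86 and 7.65 times in wild type. It was 2.67 and 2.93 times that of Cpeb4 in the knockout, against 3.46 and 3.60 times in wild type. The ratio to Cpeb3 went the other way, at 32.5 and 30.4 times in the knockout against 22.0 and 18.7 times in wild type. In these ratios, which were not tested, the groups did not overlap. The groups of Cpeb1, Cpeb2 and Cpeb3 did not overlap for each gene alone either. Of all genes tested, taken singly, 63.2% had groups that did not overlap, so these ratios add no separate result. Cpeb2 was already known to have the largest difference of the members.

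**Figure D2:**
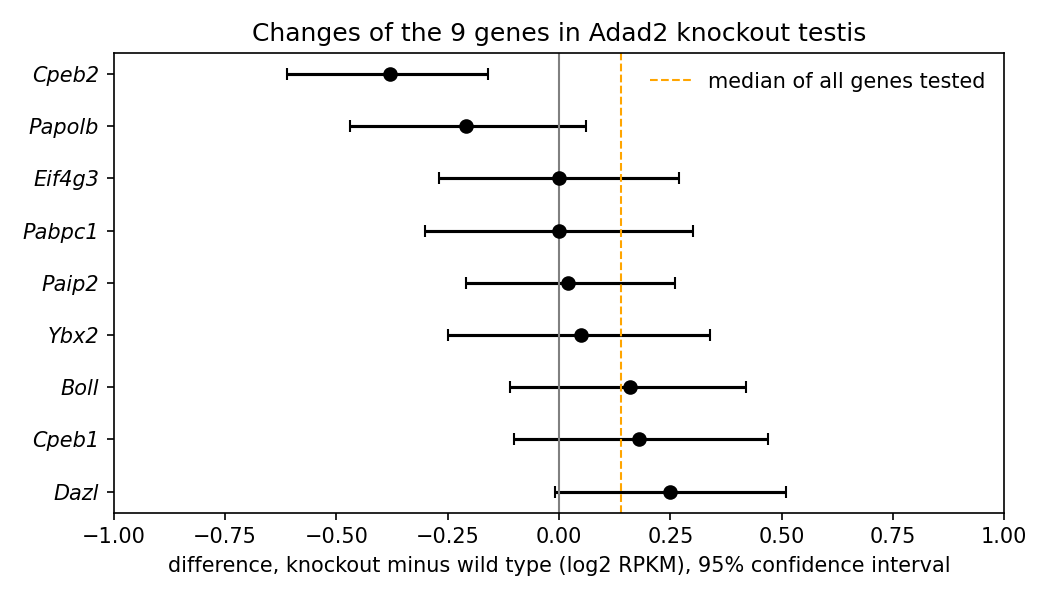
Difference between knockout and wild type in log2 RPKM (x axis) for each of the 9 genes (y axis); points are limma estimates and bars 95% confidence intervals, with 0 in grey and the median of all genes tested, 0.14, dashed. Cpeb2 alone has an interval that leaves out 0, and its adjusted p was 0.0543.

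Dazl and Boll belong to the DAZ family, which bind 3′ UTRs and can recruit poly(A)-binding protein to promote translation. Dazl acts from early germ cells into meiosis, and Boll is needed for spermatids to develop. Dazl was at 77.5 and 87.3 RPKM in the knockout libraries, against 67.9 and 70.3 RPKM in the wild type libraries. Both knockout libraries were above both wild type libraries. The log2 levels were 6.36 ± 0.12 in knockout and 6.11 ± 0.03 in wild type (SD, n = 2 each), a difference of 0.25 (95% confidence interval -0.01 to 0.51, limma adjusted p = 0.192).

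Beside Dazl, markers of spermatogonia and spermatocytes were measured in the same libraries. Of all 13414 genes tested, 28.2% had a difference below 0 and 1.22% were called higher, and 2097 were higher at an unadjusted limma p under 0.05. All 9 tested spermatogonial markers had a difference above 0 with 0 called (4 at an unadjusted limma p under 0.05), and the 10 listed summed to 96.0 and 95.8 RPKM in the knockout and 79.7 and 76.0 RPKM in wild type. All 10 spermatocyte markers had a difference above 0 with 1 called higher, and summed to 1260 and 1280 RPKM in the knockout and 864 and 993 RPKM in wild type. Sertoli markers, which are somatic, also had all 9 tested above 0, with 0 called and 5 at an unadjusted limma p under 0.05. The median differences were 0.25 for spermatogonial, 0.25 for spermatocyte and 0.27 for Sertoli markers. The part of these cell types in the value for Dazl was not tested. Dazl is on the minus strand of chromosome 17 from 50418719 to 50432924 (mm9, ENSMUSG00000010592).

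Boll was at 36.2 and 32.0 RPKM in the knockout libraries and 28.9 and 32.2 RPKM in the wild type libraries. The groups overlapped, with a log2 difference of 0.16 (95% confidence interval -0.11 to 0.42, limma adjusted p = 0.373). Boll lies on the minus strand of chromosome 1 from 55305502 to 55420313 (mm9, ENSMUSG00000025977). Dazap1, which encodes a protein that associates with DAZ proteins, was at 42.1 and 39.8 RPKM in the knockout and 32.4 and 38.5 RPKM in wild type (limma adjusted p = 0.267).

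Eif4g3 encodes a scaffold of the cap-binding complex that mouse spermatocytes need to finish meiosis. Its level was 29.9 and 32.8 RPKM in the knockout libraries and 29.1 and 33.7 RPKM in the wild type libraries. The knockout values lay between the wild type values, and the difference was 0.00 when rounded, with a 95% confidence interval of -0.27 to 0.27 (limma adjusted p = 0.999). In mm9, Eif4g3 (ENSMUSG00000028760) spans chromosome 4 from 137548937 to 137764423, plus strand, and overlaps 1700095J12Rik on the other strand with which it shares 0 exon bases in Gencode M21. Its relatives Eif4g1, the general scaffold, and Eif4g2, which supports translation without cap binding, had log2 differences of -0.18 (limma adjusted p = 0.282) and 0.09 (limma adjusted p = 0.551).

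Taking the 9 genes by whether groups overlapped, 2 (Cpeb2 and Papolb) had both knockout libraries below both wild type libraries and 2 (Dazl and Cpeb1) had both above. The other 5 overlapped. Over all genes tested, 16.8% had both knockout libraries below and 46.4% had both above, 63.2% in all. By mean level the order was Ybx2, Pabpc1, Dazl, Papolb, Boll, Eif4g3, Paip2, Cpeb2 and Cpeb1 in the knockout, and Ybx2, Pabpc1, Papolb, Dazl, Eif4g3, Boll, Cpeb2, Paip2 and Cpeb1 in wild type. The steps from Ybx2 to Pabpc1 and from the middle group down to Cpeb1 were larger than the spread between libraries. Dazl and Papolb exchanged places by mean level: Dazl was 1.01 and 1.31 times the level of Papolb in the knockout libraries and 0.842 and 0.831 times in wild type. In knockout replicate 1 they were nearly equal, with a log2 difference of 0.02. The range between knockout libraries was 0.17 for Dazl and 0.2 for Papolb, and neither gene was called. Boll and Eif4g3 lay within their replicate spread of each other in both groups. Cpeb2 was below Paip2 in both knockout libraries and above it in both wild type libraries.

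The wider machinery of poly(A) tails and translation was followed in 4 lists, chosen with earlier results of these data known. In these lists 140 of 148 genes reached the filter. Of these, 2 fell (1.43%, against 7.15% of all genes tested) and 3 rose (2.14%, against 1.22%), and the median log2 change was 0.17. In poly(A) addition and tail binding, 1 of 24 fell (Cpeb3, which passed the filter through its wild type level, as above) and 1 rose, with a median of 0.16. Before adjustment 1 was lower and 5 were higher (limma p under 0.05), against 1519 lower and 2097 higher of the 13414 genes tested. The gene called higher was Cpsf4, a subunit that recognises the polyadenylation signal, at 7.50 and 7.07 RPKM in the knockout and 5.52 and 5.25 RPKM in wild type (limma adjusted p = 0.0485). In deadenylation and decay, 0 of 32 fell and 1 rose, with a median of 0.23. At an unadjusted limma p under 0.05, 0 were lower and 10 higher, against 1519 lower and 2097 higher of the 13414 genes tested. The gene called was Cnot8, a deadenylase subunit of the CCR4-NOT complex, at 8.21 and 8.33 RPKM in the knockout and 5.85 and 6.40 RPKM in wild type (limma adjusted p = 0.047). Both increases lie close to the threshold. With no filter the limma adjusted p was 0.11 for each, and both were lost without trend and robust estimation. Both were also lost without wild type replicate 1, where every gene missed the threshold, and without wild type replicate 2. Cpsf4 was also lost without knockout replicate 1 (0.104), and Cnot8 after quantile normalization (0.0518) and without knockout replicate 2 (0.0696). Over all alternatives the log2 change ran from 0.38 to 0.48 for Cpsf4 and from 0.37 to 0.50 for Cnot8.

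In cap-dependent initiation, 0 of 34 fell and 1 rose, with a median of 0.06. At an unadjusted limma p under 0.05, 0 were lower and 6 higher, against 1519 lower and 2097 higher of the 13414 genes tested. Eif4ebp2, which encodes a protein that binds the cap-binding factor eIF4E and holds back initiation, rose to 16.4 and 19.4 RPKM in the knockout libraries against 10.8 and 11.8 RPKM in the wild type libraries. This was 1.58-fold (log2 change 0.66, SE 0.12, limma adjusted p = 0.0102). Eif4ebp2 missed the threshold without wild type replicate 1, where every gene did, and without wild type replicate 2. Its log2 change was 0.60 in the first of these fits and 0.72 in the other. Among other germ cell mRNA-binding proteins, 1 of 50 fell and 0 rose (2 lower and 6 higher at an unadjusted limma p under 0.05), with a median of 0.18. Akap1, an anchor protein of the mitochondrial surface with RNA-binding domains, fell to 4.97 and 4.53 RPKM in the knockout against 20.4 and 18.2 RPKM in wild type. This was 4.07-fold lower, a log2 change of -2.02 with an SE of 0.11 (limma adjusted p = 6.02e-05). Without wild type replicate 1, where every gene missed the threshold, the log2 change was -1.94. Adad1, the relative of Adad2 on this list, was at 36.0 and 32.2 RPKM in the knockout and 41.3 and 45.2 RPKM in wild type (limma adjusted p = 0.111, and 0.0419 after quantile normalization).

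**Figure D3:**
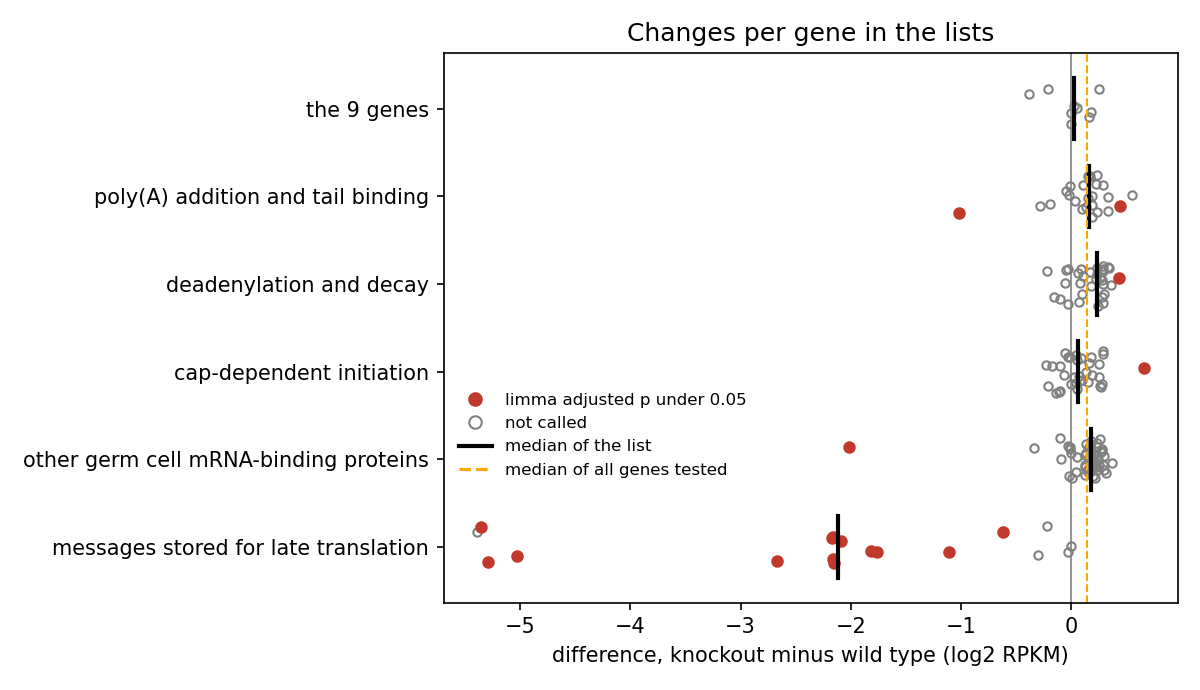
Difference between knockout and wild type in log2 RPKM (x axis) for each tested gene of the 9-gene set and of 5 lists (rows); filled points passed the limma threshold, thick bars are list medians and the dashed line is the median of all genes tested, 0.14. The 9 genes and the machinery lists have medians of 0.02 to 0.23, with Akap1 (-2.02) and Cpeb3 (-1.02) lying apart. The stored messages extend to -5.39.

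Messages that spermatids store for late translation, the kind of message these proteins bind, stood lower in the same libraries. Of 18 such genes, all tested, 13 fell, against 7.15% of all genes tested, and 0 rose (0 also at an unadjusted limma p under 0.05), with a median log2 change of -2.12. This list was chosen with earlier results of these data known, so the count is a description and not a test. Akap3, a sperm tail anchor protein, fell to 22.0 and 17.8 RPKM in the knockout against 71.2 and 63.0 RPKM in wild type (limma adjusted p = 0.00022). Gapdhs, the sperm glycolytic enzyme, fell to 3.91 and 3.46 log2 RPKM against 5.86 and 5.82 log2 RPKM in wild type (limma adjusted p = 0.000278), and Oaz3, the antizyme of haploid germ cells, to 21.8 and 15.4 RPKM against 89.1 and 77.1 RPKM in wild type (limma adjusted p = 0.000805). Ace, whose message carries the polyadenylation element printed above, fell to 6.85 and 6.55 RPKM against 14.5 and 14.4 RPKM in wild type (limma adjusted p = 0.000449).

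The other 5 stored messages were not called. They were Tnp2 (log2 difference -5.39, limma adjusted p = 0.0761, with knockout libraries at 9.67 and 2.35 RPKM), Gpx4, Acr, Ldhc and Txnrd3. Acr, with the Y-box element printed above, was at 49.1 and 46.6 RPKM in the knockout and 53.3 and 58.5 RPKM in wild type (limma adjusted p = 0.221). Prm1, the protamine message with the other such element, was chosen as an example with its values known. Its level was 0.00958 and 0.00412 times that of Ybx2 in the knockout libraries, against 0.268 and 0.240 times in the wild type libraries. For Smcp, a sperm mitochondrial protein whose message is also stored, the ratio to Ybx2 was 0.0755 and 0.0480 in the knockout and 0.317 and 0.239 in wild type. Smcp too was chosen with its values known. Both ratios, per length, were lower in the knockout, which follows from the falls of Prm1 and Smcp themselves and is no test. Prm1 changed by -5.29 on the log2 scale (limma adjusted p = 0.00916) and Smcp by -2.15 (limma adjusted p = 0.0029). Prm1 held an estimated 94 and 37 reads in the knockout libraries. Ybx2 itself had a difference of 0.05 and was not called.

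Markers of spermatids moved with the stored messages. The marker lists too were chosen with earlier results of these data known, so their counts are a description. Of 10 round spermatid markers 9 fell, again against 7.15% of all genes tested, and the list summed to 150 and 109 RPKM in the knockout and 391 and 335 RPKM in wild type. Of 10 elongating spermatid markers 9 fell, summing to 139 and 84.4 RPKM in the knockout and 1080 and 1010 RPKM in wild type, but 9 of these 10 are themselves on the stored message list. Their part in the result was not tested. Sertoli, Leydig, and peritubular and endothelial markers had medians of 0.27, 0.16 and 0.24, and 0 of these were called. Of 7 macrophage markers 1 fell and 6 had a difference above 0, with a median of 0.10 and list sums of 38.1 and 39.6 RPKM in the knockout and 60.3 and 58.4 RPKM in wild type. Of 5 red blood cell markers 0 were called, 4 had a difference below 0 and 1 above, and the median was -0.8. They summed to 38.5 and 50.2 RPKM in the knockout and 106 and 50.5 RPKM in wild type. Without wild type replicate 1 limma called 0 stored messages and 0 of all genes, with 2357 genes at an unadjusted p under 0.05.

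**Figure D4:**
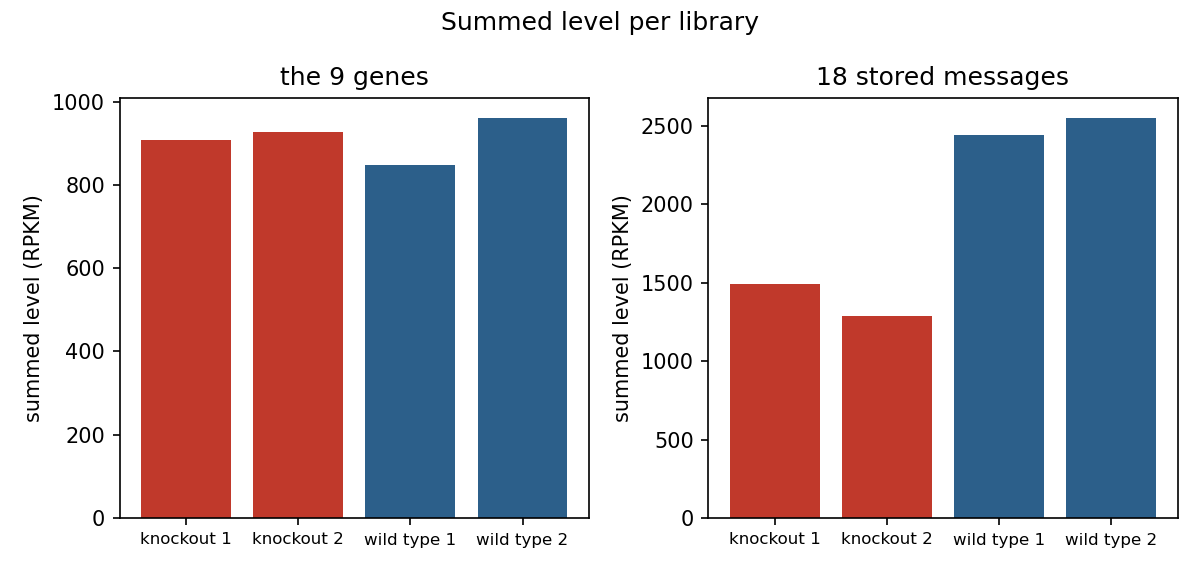
Summed level in RPKM (y axis) of the 9 genes (left) and of the 18 stored messages (right) in each knockout library (red) and wild type library (blue). The 9 genes sum to 909 and 927 RPKM in the knockout and 848 and 961 RPKM in wild type, and the stored messages to 1490 and 1290 RPKM in the knockout and 2440 and 2550 RPKM in wild type.

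Summed over the 9 genes, the level was 909 and 927 RPKM in the knockout libraries and 848 and 961 RPKM in the wild type libraries, so the knockout sums lay between the wild type sums. Ybx2 made up most of each sum. The stored messages summed to 1490 and 1290 RPKM in the knockout and 2440 and 2550 RPKM in wild type, and Ldhc, the germ cell lactate dehydrogenase, which was not called, supplied 1010 and 897 RPKM of this in the knockout and 893 and 1060 RPKM in wild type.

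The genes whose pattern over the 4 libraries was most like that of Ybx2, by the Euclidean distance between log2 values less their own mean among 10814 candidates, were Gtf2e2 and Thoc5 (distance 0.014 each) and Rpl27a (0.017). For Papolb they were Letm2 (0.024), Plxdc1 and Cdkal1 (0.025 each). With 4 libraries and so many candidates, close matches are easily found, and these names are a description.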

How the data were processed

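Per the labels' protocols, TruSeq libraries were prepared from whole-testis total RNA. Bowtie2, bcl2fastq 2.17.1.14 and mm9 are named in the submitters' processing notes. The sources used here do not give the counter, annotation, filters or use of strand. The authors deposited log2 RPKM values for 26127 entries. The 59 with no gene name (0.23%) were dropped. Each library's column was identified by genotype and replicate number. The authors' mean and difference columns are log2 values too and were not used. Genes without reads carry 0.9 of a read, so no pseudocount was added.

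Depth came from 621 single-exon genes, whose low values fell on whole multiples of a read (95.1% to 96.9% within 2%). Reads per gene used Gencode M21 exon lengths, matched by identifier. Coordinates are those of the table (mm9); M21 is on another build and gave only lengths, transcripts and exon overlaps.

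Genes with a mean of at least 0 on the log2 scale (1 RPKM) entered a limma fit (version 3.58.1, R 4.3.3) (trend and robust options, statmod 1.5.0), two-sided without pairing. P-values were adjusted over all tested genes by Benjamini-Hochberg, with a threshold of 0.05. With 2 libraries against 2, an exact permutation test cannot go below 0.333, so calls rest on the spread pooled across genes. The code was tested on simulated data.

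The members and lists were chosen with earlier results of these data known. Named genes were the members, Adad2, their relatives and partners by role, up to 4 called genes per list and direction with the smallest p, and the 3 nearest patterns of each called member (of Ybx2 and Papolb, since none was called). The genes Prm1, Smcp, Tnp2, Acr, Ldhc, Gpx4 and Txnrd3 and the sequence window of 150 bases were chosen after values or sequences were seen. Alternatives were other filters, log2(RPKM + 1), quantile normalization, equal medians, plain limma (no trend, not robust), a block on replicate number, and leaving out each library, which leaves a lone library assumed to vary like the other group.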

Additional observations from a re-analysis of the deposited data

How the results depend on the processing

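Counting error was about 4.26% or less for the 9 genes, estimated with Gencode M21 exon lengths. Of all genes, 959 were called lower and 163 higher in the knockout. The counts were 637 lower and 220 higher with the stricter filter, and 1078 lower and 97 higher with no filter. Labels give no shared litter or day to equal replicate numbers, and deviations of the same-numbered libraries correlated at 0.331, so the block was kept as an alternative. With the replicate block, limma called 1477 lower and 1837 higher, among them Adad1 (adjusted p = 0.035), Tent2 (0.0172) and Cstf2t (0.0173). Leaving out a library gave 0 to 1308 lower and 0 to 494 higher, with 0 in both without wild type replicate 1 and 288 and 22 without wild type replicate 2.

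The 9 genes had 0 called lower and 0 higher with any library left out. With the stricter filter, quantile normalization, equal medians or the replicate block, 1 was called lower, Cpeb2 (log2 changes of -0.38, -0.37, -0.39 and -0.38), and its adjusted p ran from 0.00871 to 0.189 over all alternatives. Differences near 0 changed sign without becoming calls. Quantile normalization gave -0.05 for Ybx2, -0.06 for Ybx3 and -0.0025 for Eif4g3, and equal medians gave -0.0098 for Eif4g3 and -0.0073 for Ybx3. Leaving out a library gave ranges of -0.06 to 0.16 for Ybx2, -0.14 to 0.13 for Pabpc1, -0.11 to 0.11 for Eif4g3, -0.01 to 0.06 for Paip2, -0.15 to 0.13 for Ybx1, -0.17 to 0.18 for Ybx3, -0.01 to 0.39 for Pabpc6 and -0.11 to 0.18 for Paip2b. Papolb, Dazl, Boll, Cpeb1 and Cpeb2 kept their direction in all 11 alternatives.

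In the poly(A) list the count lower was 0 with no filter and 0 with the stricter filter, which leaves Cpeb3 out, and 0 to 1 with a library left out. The count higher was 0 with no filter, 0 without trend and robust estimation, 4 with the replicate block, and 0 to 1 with a library left out. In the deadenylation list the count higher was 0 with no filter, 0 without trend and robust estimation, 8 with the replicate block and 0 to 2 with a library left out. In the initiation list it was 2 with the replicate block and 0 to 1 with a library left out. Among other mRNA-binding proteins the count lower was 2 after quantile normalization, 2 with the replicate block and 0 to 1 with a library left out, and the count higher was 4 with the replicate block. Stored messages called lower were 0 to 14 with a library left out. Counts higher in the lists were followed under the same alternatives after the data were seen. The cause of these differences was not tested. No member had a second entry, so that alternative gave no value.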
